A study of Mus musculus with 6 samples.

Results

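The genes described here encode the proteins of the mitochondrial ribosome, the machine that translates the few messages of mitochondrial DNA inside the organelle. They were chosen by name, as every gene symbol that starts with Mrps or Mrpl followed directly by a digit and that a probe set (the group of array probes read together as 1 value) carried as its only symbol. This gave 71 genes of 22180 tested, 28 named for the small subunit (Mrps) and 43 for the large subunit (Mrpl). For the 9 symbols with several probe sets the brightest was selected on its mean log2 signal over the 6 arrays, a value that does not use the genotype, and the group itself was taken up with earlier results of these arrays known. The arrays measured total RNA from untreated mouse cells transformed by NeuNDL, which is a constitutively active Neu (ErbB2) receptor, in 3 samples labelled SLK knockout and 3 labelled SLK wild-type. SLK is a Ste20-like kinase, and all 6 samples share the NeuNDL background and a serum medium with mammary epithelial growth supplement. The submitters call the samples independent and name passages 9, 19 and 29, without saying which array holds which passage, whether a genotype is 1 clone or several, or how the knockout was made. What p-values measure is thus only how far these samples spread, which may be technical.

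The mitochondrial ribosome is built from RNAs encoded in mitochondrial DNA and from proteins that are all encoded in the nucleus, made in the cytosol and imported. About its core lie homologues of bacterial ribosomal proteins, and around them proteins found only in mitochondria. All its products are subunits of the respiratory chain and of ATP synthase, so its proteins are needed wherever cells respire, and many of their genes carry promoter elements for the factors NRF1, GABP (an ETS factor) and YY1. Not every name tells the place of the protein: in structures of the mammalian particle Mrps30 and Mrps18a sit in the large subunit, and Mrps36 belongs to the 2-oxoglutarate dehydrogenase complex rather than to the ribosome.

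The promoters of these genes were searched for the elements of those factors and for 3 common ones. RefSeq's promoter table (GRCm38.p6, 250 bases before to 50 after each start) held 62 of the 71 genes, with 68 promoters. Exact matches were sought on both strands for CGCATGCGC (NRF1), CCGGAAGT (ETS) and AAGATGGC (YY1). The common E-box was searched as CACGTG. For the factor SP1 the letters were GGGCGG. The start element named for its letters was searched as TATAAA. The NRF1 letters can match both strands at 1 place, where they form a longer palindrome, and overlaps between different motifs were not removed. The 3 genes of each name group with the smallest p in the comparison below that had an NRF1 or ETS match before the start are shown, from 250 bases before the start up to it, with those matches in capitals.

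Mrps27, chr13:99344536-99344785, plus strand: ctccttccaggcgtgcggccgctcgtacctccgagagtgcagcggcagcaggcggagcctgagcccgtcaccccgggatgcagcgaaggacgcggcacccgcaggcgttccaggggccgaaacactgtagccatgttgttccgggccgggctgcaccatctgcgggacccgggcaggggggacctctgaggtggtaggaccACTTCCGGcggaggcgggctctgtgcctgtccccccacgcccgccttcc
Mrps18b, chr17:35916441-35916690, minus strand: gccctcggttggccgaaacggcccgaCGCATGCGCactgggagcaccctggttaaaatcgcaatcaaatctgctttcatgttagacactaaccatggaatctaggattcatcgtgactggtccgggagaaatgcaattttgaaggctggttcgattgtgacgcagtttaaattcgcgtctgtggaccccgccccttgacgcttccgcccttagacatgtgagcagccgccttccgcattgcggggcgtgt
Mrps22, chr9:98601680-98601929, minus strand: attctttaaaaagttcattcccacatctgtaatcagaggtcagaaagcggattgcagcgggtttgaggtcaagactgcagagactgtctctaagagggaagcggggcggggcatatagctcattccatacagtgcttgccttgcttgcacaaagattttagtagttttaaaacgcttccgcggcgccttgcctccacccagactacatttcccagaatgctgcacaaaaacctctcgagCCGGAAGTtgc
Mrpl32, chr13:14613038-14613287, minus strand: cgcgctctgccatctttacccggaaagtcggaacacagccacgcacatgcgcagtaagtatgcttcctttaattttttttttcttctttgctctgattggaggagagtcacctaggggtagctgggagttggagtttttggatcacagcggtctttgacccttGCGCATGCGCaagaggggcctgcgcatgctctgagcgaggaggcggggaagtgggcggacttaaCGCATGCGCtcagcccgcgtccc
Mrpl27, chr11:94653541-94653790, plus strand: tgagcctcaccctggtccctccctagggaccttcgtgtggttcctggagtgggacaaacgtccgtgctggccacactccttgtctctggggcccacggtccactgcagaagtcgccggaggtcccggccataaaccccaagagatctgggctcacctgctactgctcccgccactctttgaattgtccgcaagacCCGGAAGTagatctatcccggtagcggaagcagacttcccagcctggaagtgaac
Mrpl9, chr3:94443086-94443335, plus strand: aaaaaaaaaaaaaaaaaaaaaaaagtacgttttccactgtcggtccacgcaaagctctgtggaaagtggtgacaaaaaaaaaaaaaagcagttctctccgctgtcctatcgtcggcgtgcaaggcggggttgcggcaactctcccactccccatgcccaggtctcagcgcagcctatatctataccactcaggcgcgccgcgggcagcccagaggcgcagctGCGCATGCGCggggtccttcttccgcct

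In Mrpl32 the 2 NRF1 stretches began 87 and 23 bases before the start, and in Mrpl9 the single stretch began 28 bases before it. The ETS matches of Mrps22, Mrps27 and Mrpl27 began 11, 49 and 55 bases before the start, while the NRF1 match of Mrps18b lay farther off, at 224 bases. Over the 62 genes an NRF1 match was held by 7 (11.3%), against 2.66% of the 16990 tested genes with a promoter in the table. An ETS match was held by 10 (16.1%), against 5.62% of tested genes, and a YY1 match by 12 (19.4%), against 3.64%. The SP1 letters were nearly as frequent in both, with 51.6% of the mitochondrial ribosomal protein genes and 49.5% of tested genes, as were the E-box letters with 8.07% and 9.19%. The TATA letters stood in 8.07% of these promoters, against 14.3% of tested genes. By name group, NRF1 was matched in 1 of 25 Mrps and 6 of 37 Mrpl genes, ETS in 4 and 6, and YY1 in 6 and 6. A match is a description of the letters, and 17 of the 62 genes held none of the 6 motifs.

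**Figure D1:**
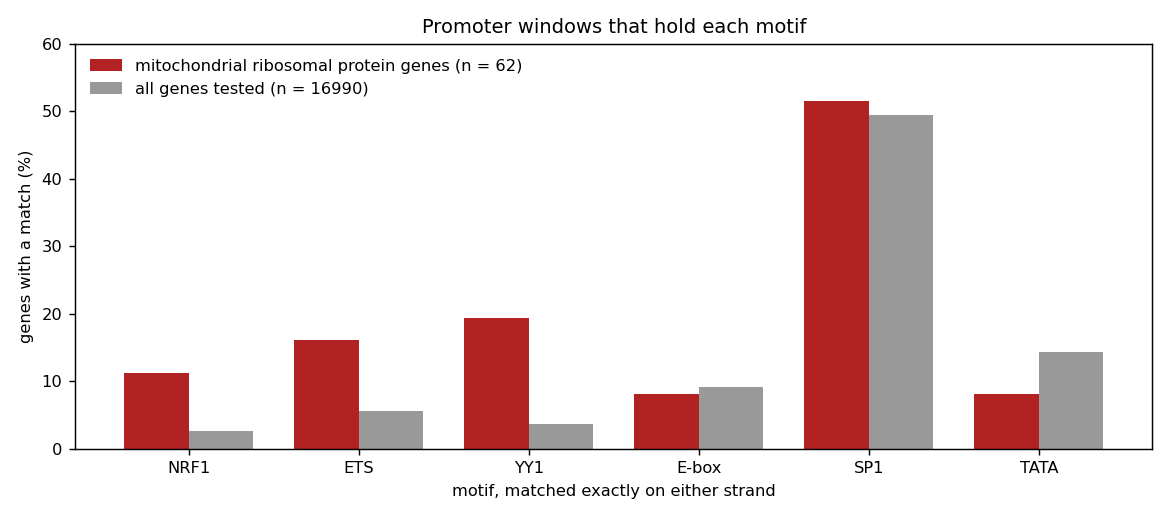
Share of genes, in percent, whose promoter window holds an exact match to each motif on either strand, for the 62 mitochondrial ribosomal protein genes with a promoter in the table (red) and the 16990 tested genes with one (grey). NRF1, ETS and YY1 matches were held by 11.3%, 16.1% and 19.4% of the red group and by 2.66%, 5.62% and 3.64% of the grey group, while SP1 shares were close to each other.

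A divergent neighbour was more frequent here than among tested genes, though most of these genes had none. Genes of like signal were not counted apart for it. Of the 62 genes 23 (37.1%) had another gene on the other strand whose start lay within 1000 bases before their own, against 13.9% of tested genes, in RefSeq's annotation. In 1 case both partners were mitochondrial ribosomal protein genes: Mrps11, a small-subunit homologue of a bacterial protein, and Mrpl46, a large-subunit protein of the central protuberance, start 42 bases apart. Some other partners serve the organelle as well, while others, such as the proteasome subunit Psma2 beside Mrpl32, do not. Their shares were not counted, and the next 2 are examples. Mrps12 starts 147 bases from Sars2, the mitochondrial seryl-tRNA synthetase, and Mrpl47 starts 308 bases from Ndufb5, a subunit of respiratory complex I.

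Before the comparison the arrays were examined. The deposited log2 values had array medians between 3.93 and 3.97, and arrays correlated with each other over probe sets at Pearson's r of 0.990 to 0.994. No array stood apart, and the number of arrays limits the precision of every value. Slk itself read 7.14, 7.21 and 7.20 on the knockout arrays, against 8.21, 8.30 and 8.34 on the wild-type arrays (log2 fold change -1.10, SE 0.06, limma adjusted p = 0.0021), so the targeted gene followed the labels. The 6 measured mammary epithelial markers all lay above the median gene. Of 7 leukocyte markers 6 lay below it, and their mean per array was 3.58 to 3.69 in knockout and 3.53 to 3.61 in wild-type cells.

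The genes of the mitochondrial ribosome did not pass the test for a difference between SLK-knockout and wild-type cells. Of 28 Mrps genes 0 were higher and 0 lower, and of 43 Mrpl genes 0 were higher and 0 lower (limma over all 22180 genes, Benjamini-Hochberg adjusted p under 0.05). Over all genes 0.325% were called higher and 0.113% lower, 0.437% in all, so a count of 0 among 71 is near the background and is no result about these genes in itself. At an unadjusted p under 0.05 there was 1 of the 71, Mrpl32, against 10.2% of all genes. The smallest adjusted p was 0.46 for Mrpl32 among the Mrpl genes and 0.53 for Mrps30 among the Mrps genes. A p that misses the threshold does not show that values did not differ, so the intervals are given: in 69 of the 71 the 95% interval of the log2 fold change, unadjusted for the number of genes, lay within -0.5 to 0.5, which is 1.41-fold either way. In 51 of the 71 it lay within -0.25 to 0.25, or 1.19-fold. This is 71.8%, against 43.0% of all genes and 65.1% of the 11090 genes brighter than the median gene, among which 70 of the 71 fall. At the limit of 0.5 the shares were 97.2% of the 71, 88.9% of all genes and 95.5% of the brighter genes. The exceptions at 0.5 were Mrps36, with an interval of -0.66 to 0.16, and Mrpl32, with -0.50 to -0.014. In cell extracts, fewer cells of a type and less RNA per cell cannot be told apart, and a normalization between arrays hides a change shared by all RNA.

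**Figure D2:**
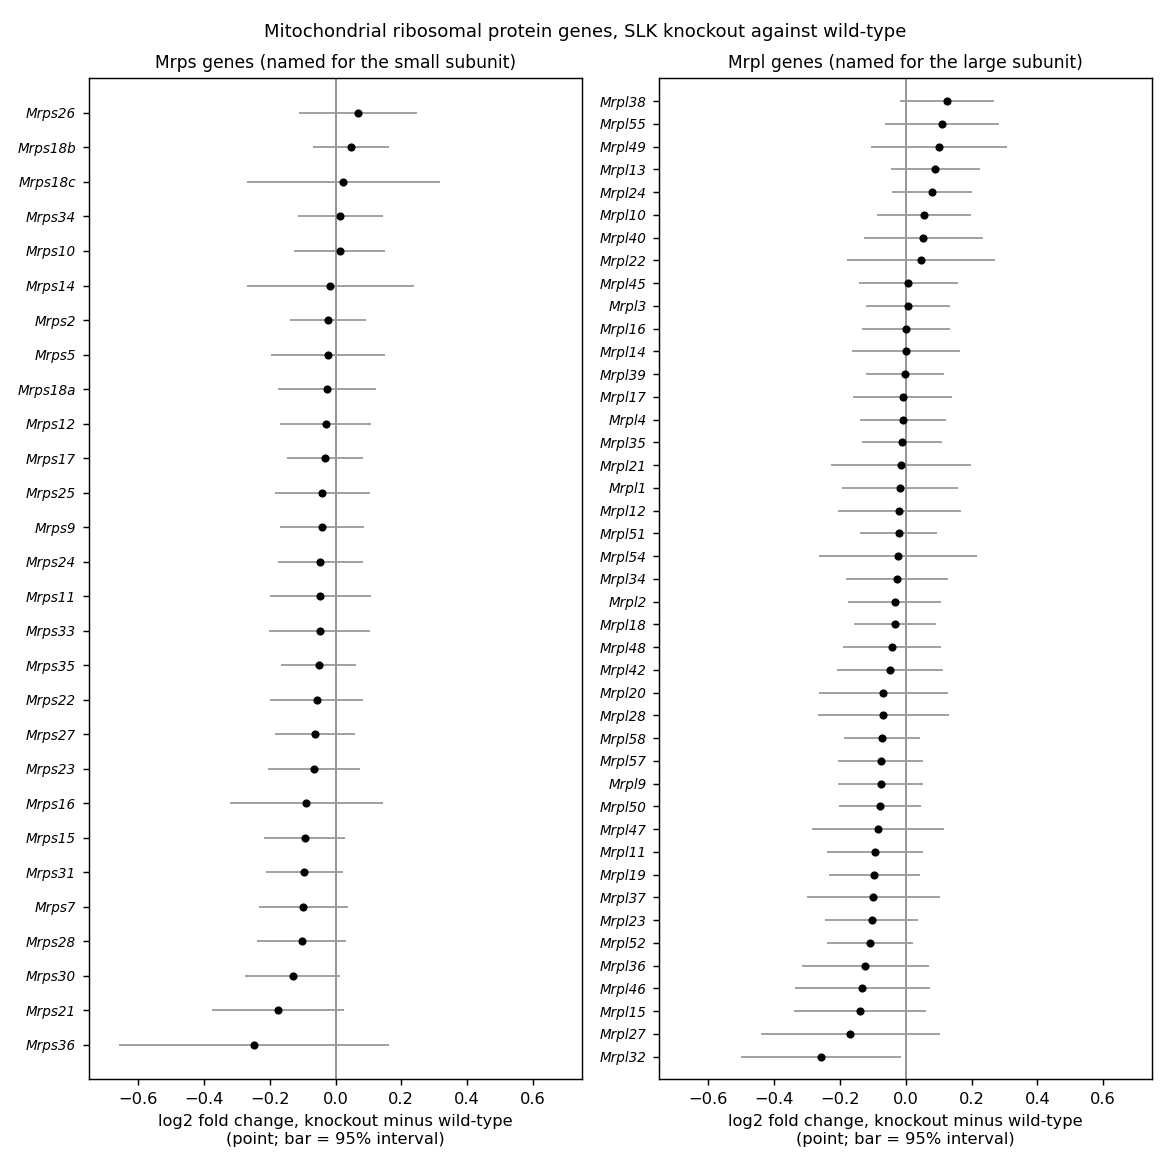
Log2 fold change (knockout minus wild-type, horizontal axis) of the 28 Mrps genes (left) and the 43 Mrpl genes (right), ordered by value. Points are estimates from 3 arrays in each group and bars their 95% intervals. All points lie between -0.26 and 0.13, and the bar of Mrpl32 is the only one that leaves out 0.

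Small differences leaned to the lower side. The mean was lower in knockout cells for 23 of 28 Mrps and 31 of 43 Mrpl genes, while 48.5% of all genes and 54.3% of those brighter genes had a lower mean there. The median log2 fold change was -0.046 for Mrps and -0.026 for Mrpl genes, against 0.0038 over all genes and -0.0085 over those brighter genes. Both medians kept their sign under quantile normalization. They kept it under median centring too, but that shifts all genes of an array alike. It moved the median over all genes down to -0.033, so the kept sign there adds nothing. Knockout arrays lay wholly below wild-type arrays in 13 of the 71, or 18.3%, against 8.1% of all genes and 12.4% of the brighter genes. They lay wholly above in 3, or 4.23%, against 8.79% of all genes and 11.03% of the brighter genes. For 57 of the 71 the size of the fold change was under 0.1 log2 units. The quartiles were -0.063 and 0.050 for the brighter genes and -0.064 and 0.078 for all genes, so small sizes were common there too. The members share their arrays and are not replicates, so these counts describe 6 arrays.

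Array by array, the lean was not a clean split of the groups. The median deviation of the Mrps genes from their own means was 0.00085, -0.040 and -0.024 on knockout arrays 1 to 3, and 0.052, 0.026 and -0.025 on wild-type arrays 1 to 3. That of the Mrpl genes was 0.025, -0.031 and -0.041 on the knockout arrays, and 0.041, 0.019 and -0.019 on the wild-type arrays. Knockout array 1 thus lay above wild-type array 3 in both name groups, and the genotypes overlapped. The lowest of the 6 values lay on knockout arrays 1 to 3 for 4, 24 and 22 of the 71 genes, and on wild-type arrays 1 to 3 for 1, 1 and 19. The highest lay on knockout arrays 1 to 3 for 11, 4 and 6, and on wild-type arrays 1 to 3 for 30, 15 and 5. Over all 22180 genes the lowest lay on the knockout arrays for 2986, 3817 and 4462, and on the wild-type arrays for 4397, 3321 and 3197. There the highest lay on the knockout arrays for 3913, 4903 and 2919, and on the wild-type arrays for 3736, 3602 and 3107. Knockout arrays 2 and 3 and wild-type array 3 thus held most of the lowest member values. Without wild-type array 3 the median of the Mrpl genes was -0.064, and without knockout array 3 it was -0.011. The 47 Snord genes, which encode small nucleolar RNAs and are read here as a class sensitive to how RNA is prepared, were lower on average in 44 cases (93.6%), against 48.5% of all genes. Of them 0 were called, against 0.437% of all genes, and 17 (36.2%) had an unadjusted p under 0.05, against 10.2%. Their median deviation stood at 0.014, -0.13 and -0.15 on the knockout arrays and at 0.16, 0.090 and 0.033 on the wild-type arrays. Their part in the lean of the mitochondrial ribosomal protein genes was not tested.

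**Figure D3:**
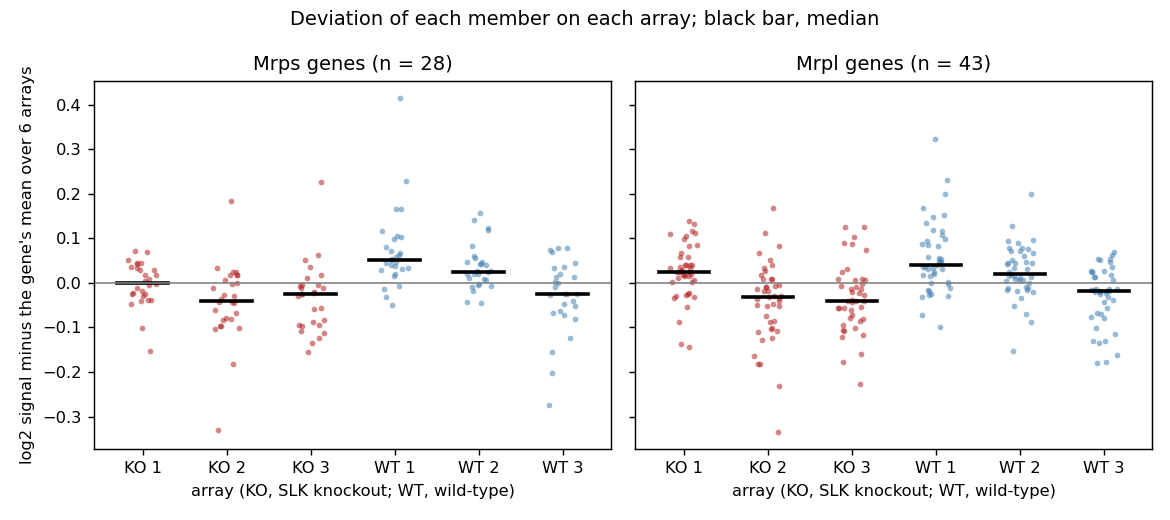
Log2 signal of each gene on each array minus that gene's mean over 6 arrays (vertical axis), for the 28 Mrps genes (left) and the 43 Mrpl genes (right), knockout in red and wild-type in blue. Black bars are medians, which run from -0.041 to 0.052, and those of knockout array 1 lie above those of wild-type array 3.

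Among the genes named for the small subunit, Mrps30 had the smallest p. It read 7.45, 7.49 and 7.36 in knockout cells, against 7.53, 7.64 and 7.52 in wild-type cells (log2 fold change -0.13, SE 0.06, adjusted p = 0.53 by limma). The knockout arrays were all below the wild-type arrays, by a margin smaller than the range within each group. Mrps21, a homologue of a bacterial small-subunit protein, read 7.21, 6.96 and 6.98 in knockout cells, against 7.30, 7.16 and 7.22 in wild-type cells, a log2 fold change of -0.18 (SE 0.08). Here knockout array 1 stood within the wild-type range. Mrps31, a mitochondria-specific protein, read 6.77, 6.72 and 6.79 in knockout cells, against 6.85, 6.83 and 6.89 in wild-type cells (log2 fold change -0.09, SE 0.05). Mrps15 is the homologue of a bacterial protein that binds the small-subunit RNA, and read 8.61, 8.53 and 8.49 in knockout cells, against 8.65, 8.64 and 8.62 in wild-type cells (log2 fold change -0.09, SE 0.05). In both genes the groups were apart, and the wild-type values of Mrps15 lay closer together than its knockout values. Mrps28, the counterpart of bacterial S1, read 6.90, 6.78 and 6.76 in knockout cells, against 6.93, 6.91 and 6.91 in wild-type cells (log2 fold change -0.10, SE 0.06). Mrps7, a protein of the head of the small subunit, read 7.97, 7.91 and 8.00 in knockout cells, against 8.13, 8.04 and 8.01 in wild-type cells (log2 fold change -0.10, SE 0.06). Both had knockout arrays wholly below, with the nearest arrays of the 2 groups within 0.01 of each other, and without wild-type array 1 the log2 fold change of Mrps7 was -0.06. The limma adjusted p of these 5 ranged from 0.54 for Mrps21 to 0.64 for Mrps7.

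Mrps36, the dimmest of the probe sets named for the small subunit and no part of the ribosome, had the lowest fold change of that name group and also the widest interval. It read 4.01, 3.78 and 4.18 in knockout cells, against 4.53, 4.27 and 3.91 in wild-type cells (log2 fold change -0.25, SE 0.17, adjusted p = 0.69), and the groups overlapped. Single arrays moved this value widely, to -0.41 without wild-type array 3, -0.14 without knockout array 2 and -0.10 without wild-type array 1. The other dim probe sets were those of Mrps14, the homologue of bacterial S14, at 4.82, 4.88 and 5.20 in knockout and 4.92, 4.97 and 5.05 in wild-type cells, and of Mrps12, which encodes the decoding-centre protein S12. Mrps12 read 5.73, 5.68 and 5.58 in knockout cells, against 5.71, 5.72 and 5.65 in wild-type cells, and as in Mrps14 its groups overlapped. Of the bright ones, Mrps24, the homologue of bacterial S3, read 7.89, 7.85 and 7.88 in knockout cells, against 8.00, 7.89 and 7.87 in wild-type cells. On the higher side stood Mrps26, a mitochondria-specific protein, at 7.86, 8.06 and 7.82 in knockout cells, against 7.85, 7.87 and 7.82 in wild-type cells (log2 fold change 0.07, SE 0.07). Its higher mean rests on knockout array 2, and without that array the log2 fold change was -0.0069.

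The mammalian genome carries a trio of paralogues of the single bacterial protein S18, and they sit at different places in the particle. Mrps18a, in the large subunit, read 7.42, 7.29 and 7.37 in knockout cells, against 7.45, 7.40 and 7.30 in wild-type cells, a log2 fold change of -0.03 (95% interval -0.18 to 0.12). Mrps18b read 7.77, 7.77 and 7.76 in knockout cells, against 7.73, 7.75 and 7.67 in wild-type cells, or 0.05 (-0.07 to 0.16). Mrps18c, the member that takes the place of bacterial S18, read 5.89, 5.93 and 5.94 in knockout cells, against 6.14, 5.92 and 5.64 in wild-type cells, or 0.02 (-0.27 to 0.32). None of them passed the test, and only Mrps18b had its knockout arrays all above the wild-type arrays. The wide interval of Mrps18c came from the wild-type arrays, which spread over 6.14 to 5.64 while the knockout arrays stayed between 5.89 and 5.94. Mrps18b has a second probe set, the closest of all those left out by the choice of the brightest (mean signal 7.38 against 7.74 for the one kept), and its log2 fold change was 0.06. That of the kept one was 0.02 without wild-type array 3.

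Among the genes named for the large subunit Mrpl32 had both the smallest p and the lowest fold change. It encodes the homologue of bacterial L32, which is cut by the m-AAA protease of the inner membrane before it joins the ribosome. Its probe set read 6.89, 6.53 and 6.79 in knockout cells, against 7.02, 7.06 and 6.90 in wild-type cells. The log2 fold change was -0.26 (SE 0.10), or 1.20-fold lower, with an unadjusted p of 0.041 and an adjusted p of 0.46 (limma). Knockout array 2 was the lowest by far, and knockout array 1 came close to wild-type array 3. Without knockout array 2 the log2 fold change was -0.16. The promoter of Mrpl32 printed above is the one with 2 NRF1 stretches. It starts 205 bases from Psma2, a proteasome subunit on the other strand with a log2 fold change of -0.08 (SE 0.06).

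The fold changes of the next genes by p were smaller. Mrpl52, a mitochondria-specific protein with the brightest probe set of all 71, read 9.73, 9.73 and 9.65 in knockout cells, against 9.87, 9.79 and 9.77 in wild-type cells (log2 fold change -0.11, SE 0.05). Mrpl23, the homologue of a bacterial protein at the mouth of the exit tunnel, read 6.79, 6.89 and 6.95 in knockout cells, against 6.97, 6.97 and 7.00 in wild-type cells (log2 fold change -0.10, SE 0.06). Mrpl19, another bacterial homologue, read 7.13, 7.25 and 7.28 in knockout cells, against 7.32, 7.29 and 7.33 in wild-type cells (log2 fold change -0.10, SE 0.06). In all 3 the knockout arrays lay below the wild-type arrays, and the adjusted p was between 0.56 and 0.65. Without knockout array 1, the lowest in Mrpl23 and Mrpl19, their log2 fold changes were -0.06 and -0.05. Mrpl38, a mitochondria-specific protein of the central protuberance, went the other way and had the highest fold change of the 71. It read 8.23, 8.18 and 8.07 in knockout cells, against 8.00, 8.03 and 8.08 in wild-type cells (log2 fold change 0.13, SE 0.06, adjusted p = 0.55), and the lowest knockout array was below the highest wild-type array. Mrpl55, the homologue of bacterial L31, read 6.48, 6.40 and 6.54 in knockout cells, against 6.46, 6.37 and 6.26 in wild-type cells (log2 fold change 0.11, SE 0.07), and 0.06 without wild-type array 3.

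**Figure D4:**
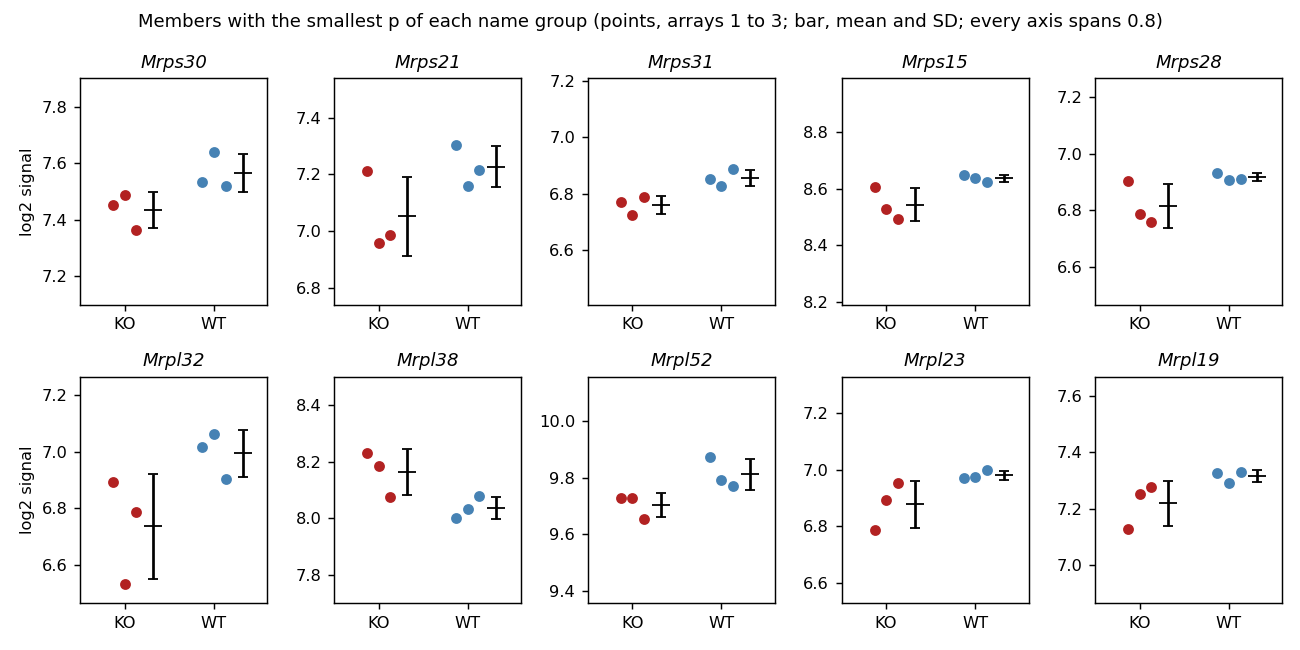
Log2 signal on each array (vertical axis, the same span in every panel) for the 5 Mrps genes (top) and the 5 Mrpl genes (bottom) with the smallest p, knockout left and wild-type right. Points are arrays 1 to 3 and bars the mean and SD; 9 of the 10 have the lower mean in knockout cells and Mrpl38 the higher one.

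The remaining named genes of the large subunit stood closer to 0 or were dim. Mrpl58, a peptidyl-tRNA hydrolase that frees stalled ribosomes, read 8.66, 8.61 and 8.60 in knockout cells, against 8.67, 8.72 and 8.68 in wild-type cells (log2 fold change -0.07, SE 0.05). Mrpl39, a mitochondria-specific protein, read 9.00, 8.92 and 8.98 in knockout cells, against 8.94, 8.97 and 9.00 in wild-type cells, a log2 fold change of -0.0031 whose 95% interval ran from -0.12 to 0.12. Of the dim probe sets, that of Mrpl27, the homologue of a bacterial protein near the catalytic centre, read 4.76, 4.57 and 4.62 in knockout cells, against 5.06, 4.72 and 4.68 in wild-type cells. Its log2 fold change of -0.17 (SE 0.11) became -0.05 without wild-type array 1, which was the highest of the 6. Mrpl46 was like it, at 5.23, 5.08 and 5.11 in knockout cells and 5.44, 5.22 and 5.16 in wild-type cells (log2 fold change -0.13, SE 0.09), and -0.05 without the same array. Mrpl48, like Mrpl46 a protein of the central protuberance, read 4.70, 4.67 and 4.59 in knockout cells, against 4.72, 4.75 and 4.60 in wild-type cells. The groups were also apart in Mrps35, Mrpl50 and Mrpl57 (knockout below, log2 fold changes of -0.05, -0.08 and -0.08) and in Mrpl13 and Mrpl24 (knockout above, 0.09 and 0.08), which are named after their values were seen. Over all 71 genes the mean signal ran from 4.12 to 9.76, with 70 above the median gene (4.39), and the SD within groups had a median of 0.064, against 0.099 over all genes and 0.064 over the brighter genes.

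By origin, the 17 Mrps genes of bacterial ancestry had a median log2 fold change of -0.033 and the 10 mitochondria-specific ones one of -0.054. Among Mrpl genes the medians were -0.023 for 28 of bacterial ancestry and -0.042 for 15 mitochondria-specific ones. The quartiles overlapped in both name groups (-0.089 to -0.022 and -0.065 to -0.042 for Mrps, -0.087 to 0.0013 and -0.078 to 0.0024 for Mrpl), and no test was made between them. Moving Mrps30 and Mrps18a to the large subunit and leaving out Mrps36 gave medians of -0.046 for the small and -0.026 for the large subunit. The 17 genes with an NRF1 or ETS match had a median of -0.022, with 11 of 17 lower in knockout cells, and the 45 with neither had a median of -0.046, with 37 of 45 lower.

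Ribosomal proteins of the same particle that carry other names were measured too. Dap3, the GTP-binding small-subunit protein also known for its part in cell death, differed by -0.09 in log2 fold change (SE 0.05, adjusted p = 0.65), and Ptcd3, a pentatricopeptide-repeat protein, by -0.02 (SE 0.06). Gadd45gip1 of the large subunit had -0.10 (SE 0.08). Lactb, listed with them because it was once counted as a ribosomal protein, is a filament-forming serine protease-like enzyme between the mitochondrial membranes. It read 5.61, 5.58 and 5.58 in knockout cells, against 5.90, 5.75 and 5.76 in wild-type cells (log2 fold change -0.21, SE 0.06, adjusted p = 0.29). All 4 had a lower mean in knockout cells, against 48.5% of all genes. Of them 0 passed, against 0.437% of all genes, which is near the background for so few.

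The steps of mitochondrial translation around the ribosome held no call either. Over all genes 0.437% were called, so counts of 0 in lists this short are near the background and no result in themselves. Of 12 translation factors 0 passed, with a median log2 fold change of -0.023. Tufm, the mitochondrial elongation factor Tu, had -0.11 (SE 0.05, adjusted p = 0.49), and Mtfmt, which formylates the initiator tRNA, -0.11 (SE 0.05, adjusted p = 0.56). Of 24 assembly factors 0 passed and 11 had a lower mean, among them Eral1, the chaperone of the small-subunit RNA, at -0.12 (SE 0.05), while Mrm1, an RNA methyltransferase, had 0.11 (SE 0.06). The 16 mitochondrial tRNA synthetases had a median of 0.013, with Mars2 at -0.24 (SE 0.08, adjusted p = 0.39) and Nars2 at -0.11 (SE 0.06), and the 17 cytosolic ones a median of 0.012, with Tars at 0.11 and Nars at 0.09. In genes for the copying and reading of mitochondrial DNA, 0 of 13 passed, and the polymerase subunits Polg and Polg2 had -0.16 (SE 0.06) and -0.11 (SE 0.06). The 24 import genes had 12 lower and 12 higher means, with Timm17b of the inner-membrane translocase at -0.12 and Tomm22, an outer-membrane receptor, at 0.08.

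The products of the ribosome and their nuclear partners were set beside it. All 10 measured genes of mitochondrial DNA were lower on average in knockout cells, with a median of -0.056 (log2) and 0 past the test. ND3 and ND6, both subunits of complex I, each had -0.08 (SE 0.05 and 0.06), with an adjusted p of 0.68 for ND3. On the arrays this group was uneven, with median deviations of -0.0014, -0.15 and 0.087 on knockout arrays 1 to 3 and 0.063, 0.021 and -0.0056 on wild-type arrays 1 to 3, so that knockout array 3 was the highest and knockout array 2 the lowest. Nuclear complex I genes were lower in 23 of 32, with a median of -0.034, and Ndufab1 and Ndufb3 both at -0.15 (SE 0.06 and 0.07). Complexes II to IV were lower in 15 of 23, with a median of -0.035, with Cox6b1 of complex IV at -0.15 and Uqcrc2 of complex III at -0.12. ATP synthase genes were lower in 9 of 14 (median -0.015), with Atp5e at 0.15 and Atp5g1 at -0.18. In each of these lists 0 genes were called, against 0.437% of all genes. Of 69 cytosolic ribosomal protein genes 0 passed and 42 had a lower mean, with a median of -0.012, and Rpl30 at 0.25 (SE 0.08) and Rps13 at -0.30 (SE 0.11) had the smallest p.

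**Figure D5:**
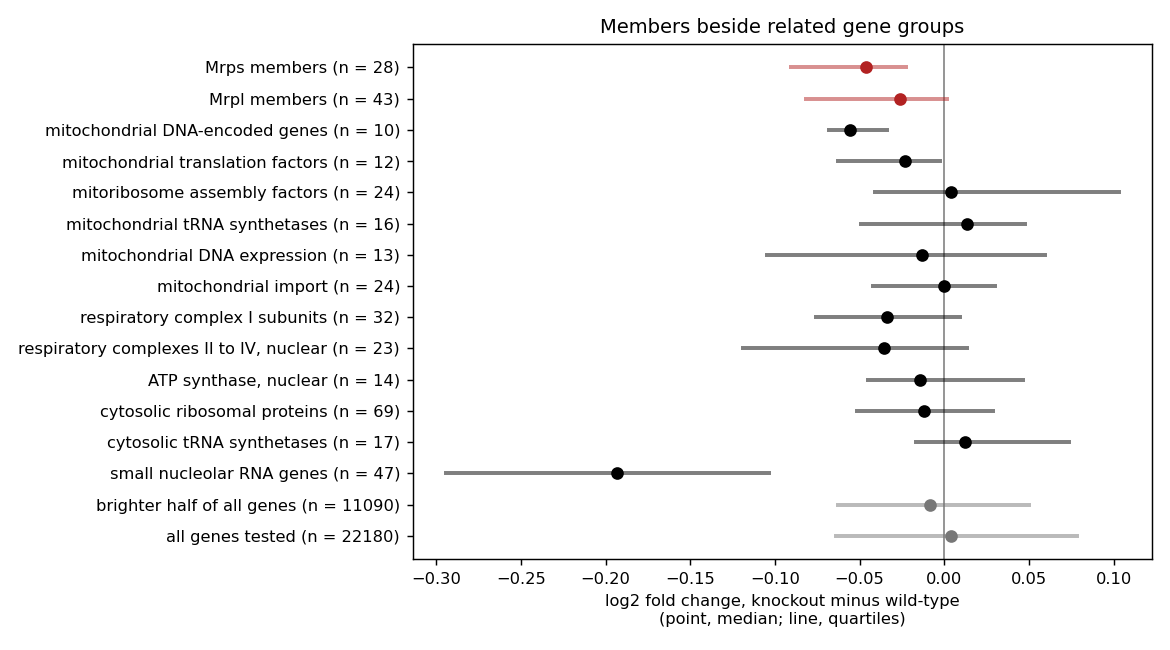
Median (point) and quartiles (line) of the log2 fold change, knockout minus wild-type, for the 2 name groups (red), related gene groups (black) and all genes and the brighter genes (grey). The medians of Mrps and Mrpl genes (-0.046 and -0.026) lie between those of the genes of mitochondrial DNA (-0.056) and of all genes (0.0038), and the Snord genes lie apart at -0.19.

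Of 18 regulators of mitochondrial gene expression none passed the test, against 0.437% of all genes. Ppargc1a, the coactivator PGC-1alpha that drives the formation of mitochondria, came closest. It read 4.92, 4.59 and 4.80 in knockout cells, against 5.40, 5.37 and 5.24 in wild-type cells, or -0.57 in log2 fold change (SE 0.10, limma adjusted p = 0.083), and its groups were apart. At an unadjusted p under 0.05 there were 3 of these 18 genes (16.7%), against 10.2% of all genes. Nrf1, whose sites were sought above, read 6.24, 6.34 and 6.28 in knockout cells, against 6.47, 6.35 and 6.40 in wild-type cells (log2 fold change -0.12, SE 0.06, adjusted p = 0.55). Gabpa and Gabpb1, the subunits of GABP, had -0.03 (SE 0.05) and -0.09 (SE 0.05), and Yy1 had 0.02 (SE 0.06). Sirt3, a mitochondrial deacetylase, had -0.16 (SE 0.06, adjusted p = 0.48). Myc, which raises ribosome production in many cells, had -0.13 (SE 0.05, adjusted p = 0.49).

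Markers of other cells that the culture could hold were read beside these values. The mean log2 signal of 7 leukocyte markers lay at 3.58 to 3.69 in knockout and 3.53 to 3.61 in wild-type cells, with 6 of the 7 below the median gene. In that list 1 gene (14.3%), Tyrobp (log2 fold change 0.29), had knockout arrays wholly above, against 8.79% of all genes. For so few genes that is near the background. The mean of 5 endothelial markers lay at 3.74 to 3.98 in knockout and 3.82 to 3.95 in wild-type cells. Of these 5, 2 (40%) had knockout arrays wholly below, against 8.1% of all genes, and 3 had a higher mean in knockout cells. Their log2 fold changes ran from -0.32 to 0.17. The mean of 5 adipocyte markers lay at 3.99 to 4.14 in knockout and 3.92 to 3.96 in wild-type cells. Of these 5, 1 was called higher (Fabp4, log2 fold change 0.92), against 0.325% of all genes. Of the others, none of them called, Lep had 0.26, and Cidec (-0.31, knockout arrays wholly below), Plin1 (-0.18) and Adipoq (-0.08) had lower means. The 8 fibroblast markers lay at 5.93 to 5.97 in knockout and 5.997 to 6.05 in wild-type cells. Of them 1, Pdgfrb (-0.67), was called lower, against 0.113% of all genes. In 3 of the 8 (37.5%) knockout arrays lay wholly above, against 8.79% of all genes, and in 4 (50%) wholly below, against 8.1%. The rest of that list was not called and went both ways. Dcn (0.43), Postn (0.37) and Pdgfra (0.10) had knockout arrays wholly above. Col1a1 (-0.33), Col1a2 (-0.19) and Col3a1 (-0.19) had them wholly below, and in Lum (-0.15) the groups overlapped. The 5 muscle markers lay at 4.49 to 4.62 in knockout and about 4.47 in wild-type cells. The 6 mammary epithelial markers lay at 8.80 to 8.83 in knockout and 8.98 to 9.03 in wild-type cells. Of them 2, Krt14 (-0.66) and Cdh1 (-0.43), were called lower, against 0.113% of all genes. In 3 of the 6 (50%) knockout arrays lay wholly below, against 8.1% of all genes, and in 2 (33.3%) wholly above, against 8.79%. Of those not called, Epcam had -0.35 with knockout arrays wholly below, Erbb2 -0.05, and Krt8 and Krt18 had 0.15 and 0.14 with knockout arrays wholly above. The leukocyte, endothelial and muscle lists held 0 calls, against 0.437% of all genes, which is near the background for so few. No marker is listed at 0, and the part of these markers in the values of the mitochondrial ribosomal protein genes was not tested.

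A further 13 probe sets name a mitochondrial ribosomal protein gene together with another gene and were left out by the rule. They are the sole source for 7 symbols, among them Mrps6 and Mrpl33. The probe set shared by Mrpl33 and Babam2 read 8.05, 8.14 and 8.05 in knockout cells, against 7.82, 7.96 and 7.90 in wild-type cells, a difference of 0.19. The other probe set that names Mrpl33, shared with Gm38424, had a difference of 0.05, and which gene either one reads cannot be told apart. The probe set of Mrps6 and Slc5a3 read 9.03, 9.09 and 9.00 in knockout cells, against 8.98, 9.06 and 9.02 in wild-type cells.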

How the data were processed

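Total RNA was measured on 6 one-colour arrays, 3 SLK knockout and 3 SLK wild-type. The authors deposited log2 values for 41345 probe sets per array, made with Affymetrix Expression Console 1.4.1.46 per the submitters' processing notes; how background, normalization and summarisation were handled, and to which base the logarithm was taken, are steps not given in the sources used here. A highest value of 12.4 exceeds the natural log of a 16-bit limit (11.1), so base 2 was taken. Array signals compress differences, most of all for dim probe sets, and detection calls were not part of the table. Levels of different probe sets are not levels of transcripts relative to each other.

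Gene symbols came from GEO's platform annotation, which gave 23521 probe sets exactly 1 symbol; 22180 symbols were tested, each by its brightest probe set. Of the members, 9 had more than 1 probe set, and all 71 entered the test with no filter on low values. Knockout was compared with wild-type in limma 3.58.1 under R 4.3.3 (lmFit and eBayes without trend, two-sided), with Benjamini-Hochberg adjustment over all genes and a threshold of 0.05. The fit was also run on simulated data with independent noise and changes larger than those of the members. That run does not tell how small a change would be found in the members. Named genes are Slk, the Mrps18 paralogues, Mrps30, Mrps36, any member past the threshold and, in each name group, the 5 with the smallest p, the 3 brightest, the 3 dimmest and the 2 at each end of fold change, with the 2 smallest p of each list; other genes were named after their values were seen. The members and lists were chosen with earlier results of these data known. Alternatives covered normalization, dim genes, the choice of probe set, the variance model, array weights, the replicate number as a block and each array left out. Protein features were not analysed here. Promoter sequences are RefSeq's, of GRCm38.p6.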

Additional observations from a re-analysis of the deposited data

How the results depend on the processing

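No member passed the threshold in the main analysis or in any of 16 alternatives (limma). Over all genes 72 were called higher and 25 lower, against 5 and 1 with the replicate block, 25 and 4 with each probe set tested by itself, 143 and 63 without the dimmest 30% of genes, 202 and 139 without the dimmest 50%, 265 and 176 with an intensity trend, 264 and 179 with a robust trend, and 13 to 24 and 2 to 5 with 1 array left out. The smallest adjusted p of a member in any setting was 0.19, for Mrpl32 with a robust trend. Same-numbered arrays correlated in their deviations over genes at 0.044, 0.017 and -0.066, and differently numbered ones at -0.12 to 0.11. The same-numbered values thus did not stand out, but 3 arrays a group cannot exclude a pairing, in this or another order. With the replicate block 0 members were called and Slk had a limma adjusted p of 0.046. Median centring moved the medians to -0.084 for Mrps and -0.063 for Mrpl genes, while the median over all genes became -0.033. With 1 array left out the Mrps median ran from -0.071 to -0.031 and the Mrpl median from -0.064 to -0.011, the lower end of each without wild-type array 3. The number of members with a lower mean, an alternative added after the data were seen, was 47 to 59 with 1 array left out, against 54 of 71. Slk ran from -1.14 to -1.07.

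In 43 of 71 members the sign held in all settings. Among named members the sign turned for Mrps18c with median centring (-0.014) and Mrpl39 with array weights (0.0011). With 1 array left out it turned in Mrps14 (-0.13 to 0.056), Mrps12 (-0.063 to 0.010), Mrps26 (-0.0069 to 0.11), Mrpl39 (-0.021 to 0.020), Mrps18a (-0.067 to 0.0069) and Mrps18c (-0.11 to 0.14). None of these passed a test in any setting. The number of arrays, 3 a group, limits every value. The planned table of protein features was not run.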
